A study of Mus musculus with 6 samples.

Results

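Fc receptors and related immunoglobulin-like receptors of myeloid cells were followed in mouse cortical neuron cultures exposed to fibrils of mouse α-synuclein. The set held 10 genes, chosen by symbol, of the 24411 genes in the deposited count table, and all 10 were present. Of these, 5 were classed as activating (Fcer1g, Fcgr1, Fcgr3, Tyrobp and Trem2) and 5 as inhibitory (Fcgr2b, Lilrb4a, Pirb, Cd300lf and Cd33). The cells were dissociated from the cortex of embryos at day 18. In 3 libraries preformed fibrils of α-synuclein (PFF, seeds of protein aggregation) had been added to the medium on culture day 10, at 3.45 µM, and the cells were harvested 8 days later, on culture day 18. In the other 3 libraries the cultures had been given phosphate-buffered saline (PBS). The labels name the cell type as primary cortical neuron, give no mouse strain, genotype or sex, and do not say whether replicates were separate cultures. Each p therefore reflects the variation among these libraries alone, which could be technical in origin.

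Activating receptors of this kind signal through a partner that carries an immunoreceptor tyrosine-based activation motif (ITAM). Fcer1g, the common γ chain, serves the IgG receptors Fcgr1 and Fcgr3, and Tyrobp (DAP12) serves Trem2, a microglial receptor for lipids and apolipoproteins. Kinases of the Src family phosphorylate the ITAM, and Syk then binds it. Inhibitory receptors carry an immunoreceptor tyrosine-based inhibitory motif (ITIM) instead, which recruits the phosphatases Ptpn6, Ptpn11 or Inpp5d and damps the ITAM signal. In the brain these genes are known mainly from microglia and other macrophages.

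The motifs that divide the set can be read in the coding sequence. Coding sequences of the principal transcripts in GENCODE vM21 (GRCm38, the assembly also called mm10) were translated and searched after the most hydrophobic 19-residue stretch. An ITAM was taken as tyrosine codons each followed, 3 residues on, by leucine or isoleucine, with 6 to 8 residues between both parts. An ITIM was taken as a tyrosine with isoleucine, leucine, valine or serine 2 residues before it and isoleucine, leucine or valine 3 residues after it. The matches in the adaptors and in the inhibitory receptors that were tested are shown 5′ to 3′ on the coding strand, with the tyrosine codons in capitals.

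Fcer1g ITAM: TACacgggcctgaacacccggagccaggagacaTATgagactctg
Tyrobp ITAM: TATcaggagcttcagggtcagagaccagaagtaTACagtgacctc
Fcgr2b ITIM: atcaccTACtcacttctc
Lilrb4a ITIM 1: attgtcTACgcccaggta
Lilrb4a ITIM 2: gtaaccTATgcccagttg
Pirb ITIM 1: agcctaTATgcttcagtg
Pirb ITIM 2: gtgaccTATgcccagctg
Pirb ITIM 3: agtgtaTATgctactctg

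The ITAM of Fcer1g lies within chr1:171229889-171230072 (minus strand) and that of Tyrobp within chr7:30415670-30417382 (plus strand), each spread over exons on both sides of an intron. The ITIM of Fcgr2b is at chr1:170961071-170961088 (minus strand). Those of Lilrb4a are at chr10:51496021-51496038 and chr10:51496194-51496211 (plus strand). Those of Pirb are at chr7:3713862-3714103, which spans an intron, chr7:3712786-3712803 and chr7:3712696-3712713 (minus strand). Cd300lf had 2 ITIM matches. The tails of Fcgr1, Fcgr3, Trem2 and Cd33 had 0 matches to either pattern, and the ITIM pattern also matched 1 place in Tyrobp, overlapping the start of its ITAM. Cd33, a sialic-acid-binding lectin, is classed as inhibitory from the human protein, so its class in mouse was not supported by this search. The hydrophobic stretch held a basic residue in Trem2 and Cd33, and an acidic residue in Fcer1g, Tyrobp and Fcgr3.

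All 9 members with enough counts to be tested were higher in PFF, and none was lower. They comprised 5 of 5 activating and 4 of 5 inhibitory members, whereas 3.98% of the 13919 genes tested were called higher (edgeR quasi-likelihood test, adjusted p under 0.05), 2.6% lower and 6.58% in either direction. Every PFF library lay above every PBS library for these 9 members, as it did for 13.4% of all tested genes, while 11.6% lay the other way. Of the 9, Fcgr1, Pirb and Cd33 met the low-count filter only through their PFF libraries, so the filter itself favoured a difference for them, and the other 6 met it in all 6 libraries. With no low-count filter all 10 members were tested and the same count of 9 was called higher, against 3.35% of 18964 genes. Log2 fold changes of the tested members ran from 0.98 to 2.03, and the median of all genes tested was −0.00054. The members had been chosen with earlier results of these libraries known, so their count is a description.

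**Figure D1:**
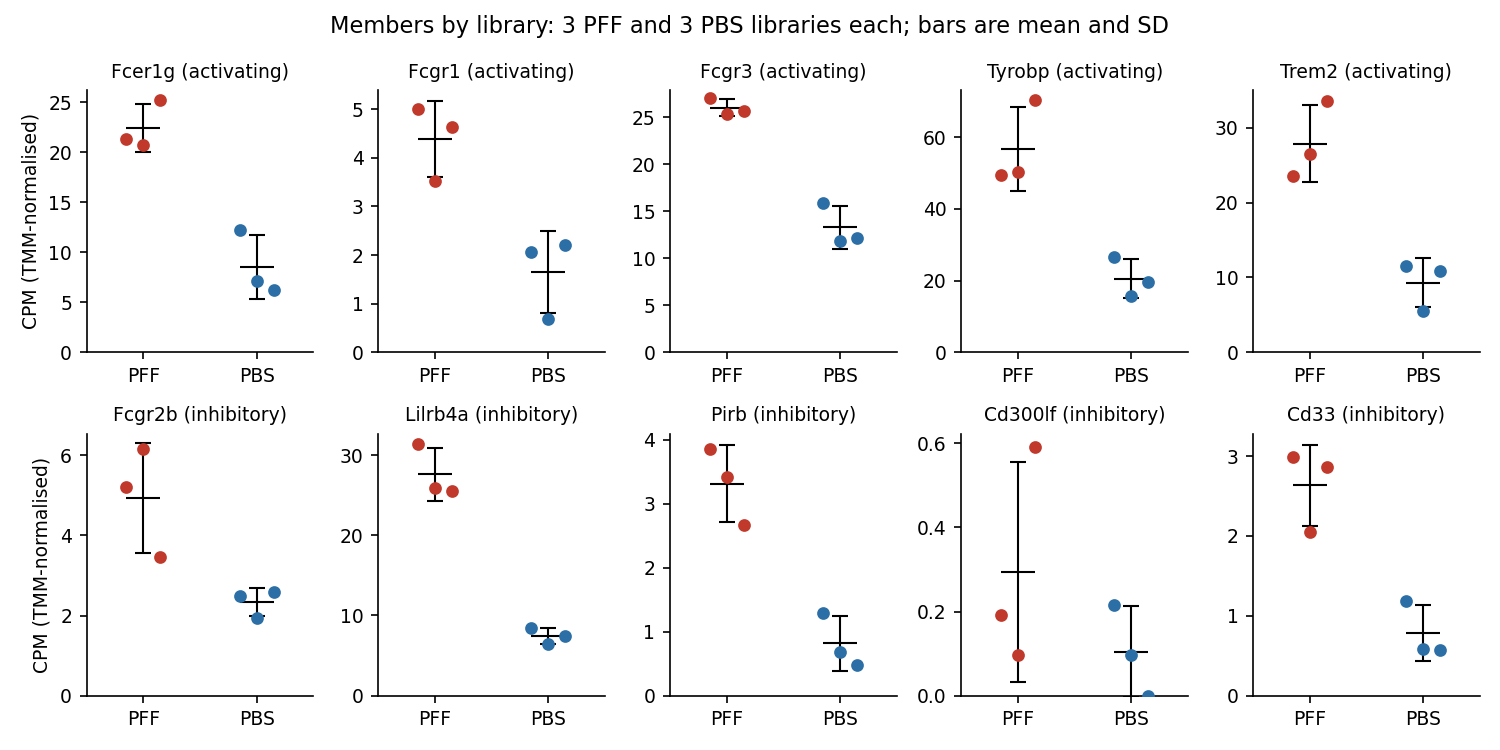
Level of each member in each library, in CPM (counts scaled to library size, TMM-normalised; linear axes from 0), with PFF at the left of PBS, and the mean and SD of 3 libraries. PFF points lie above all PBS points in 9 panels, and Cd300lf, at 0.294 CPM in PFF and 0.104 CPM in PBS, overlaps.

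CPM values rest on library totals that ranged from 9224974 to 10742383 estimated counts. Replicate 3 of both groups stood apart from replicates 1 and 2 on the second principal component, which held 18.3% of the variance, and the labels name no batch. With replicates 1 and 2 only, the 9 members still passed. Neuronal markers summed to between 5616 and 6178 CPM in PFF and between 5395 and 5711 CPM in PBS, so transcripts of the labelled cell type were abundant. Those of astrocytes were abundant too. The 8 astrocyte markers summed to between 3507 and 4508 CPM in PFF and between 3619 and 4734 CPM in PBS, with 3 lower in PFF and 0 higher. Microglia markers were present at a lower level and moved with the members: 14 of the 16 tested of the 18 listed rose and none fell, with a median log2 fold change of 1.25. Their summed level was between 566 and 673 CPM in PFF and between 216 and 324 CPM in PBS. P2ry12, a marker of resting microglia, was at 1.20 CPM in PFF and 1.02 CPM in PBS and did not pass (adjusted p = 0.731). The part of microglial content in the members' difference was not tested, and in these bulk samples more cells of a type and more RNA per cell cannot be told apart.

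Other immune cells that use the same receptors left few counts. Of 6 mast cell markers, Cpa3, Mcpt4, Tpsb2 and Tpsab1 were at 0 in every library, and the list summed to at most 0.988 CPM in PFF and 0.970 CPM in PBS. The 7 neutrophil markers in the table summed to at most 0.0988 CPM in PFF and 0.192 CPM in PBS, with S100a9, Elane, Ngp and Retnlg at 0. The 9 T and NK cell markers, of which Cd3e, Cd3g, Ncr1, Nkg7, Gzma and Prf1 were at 0, stayed at or below 0.391 CPM in PFF and 0.433 CPM in PBS. The 5 B cell markers in the table, with Ms4a1 at 0, stayed at or below 0.889 CPM in PFF and 0.388 CPM in PBS. Of 6 dendritic cell markers 3 were tested and 0 passed (sums between 8.57 and 14.2 CPM in PFF and between 7.57 and 10.9 CPM in PBS). Macrophages of the brain's borders were a different case. Their 8 markers summed to between 105 and 111 CPM in PFF and between 20.2 and 39.9 CPM in PBS, mostly from Stab1 (84.8 CPM in PFF and 22.6 CPM in PBS on average). Mrc1, Ms4a7 and Stab1 rose, of which Mrc1 met the filter only through PFF. Cbr2 was at 0, and Lyve1 (0.519 CPM in PFF and 0.326 CPM in PBS), F13a1 (0.0655 and 0.0323 CPM) and Cd163 (0.0647 and 0.0361 CPM) were nearly absent. The part of such cells in the results was not tested.

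Tyrobp was the most abundant member per length in both groups. Its levels were 49.5, 50.3 and 70.3 CPM in PFF 1 to 3, against 26.5, 15.6 and 19.5 CPM in PBS 1 to 3. The groups did not overlap, and PFF 3 stood above the other PFF libraries. Its log2 fold change was 1.47 ± 0.18 (adjusted p = 0.000562). Here and below, ± is the SE after a log2 fold change and the SD after a level in CPM (n = 3 per group). The partner receptor Trem2 was measured at 23.6, 26.5 and 33.6 CPM in PFF and at 11.5, 5.53 and 10.9 CPM in PBS, a log2 fold change of 1.59 ± 0.22 (adjusted p = 0.00107). For both genes PFF 3 was the highest library and PBS 2 the lowest. The gene of Tyrobp lies at chr7:30413760-30417585 and that of Trem2 at chr17:48346401-48354147 on GRCm38, and both are protein-coding.

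Fcer1g, the γ chain, had 21.4, 20.7 and 25.2 CPM in PFF, against 12.2, 7.08 and 6.25 CPM in PBS. Its log2 fold change was 1.41 ± 0.19 (adjusted p = 0.000594), and PBS 1 was the PBS library nearest to PFF. Fcgr3, the low-affinity activating IgG receptor, stood at 27.1, 25.3 and 25.7 CPM in PFF and at 15.9, 11.8 and 12.1 CPM in PBS. It had the smallest fold change of the tested members, 0.98 ± 0.12 on the log2 scale (adjusted p = 0.000231), with the PFF libraries close together. Fcgr1, the high-affinity IgG receptor, had 52, 36 and 47 counts in PFF and 19, 7 and 23 counts in PBS. Its log2 fold change of 1.42 ± 0.32 passed (adjusted p = 0.0159) but did not do so without PFF 1 (adjusted p = 0.0569). Fcer1g, Fcgr3 and Fcgr2b all lie on the minus strand of chromosome 1, at 171229572 to 171234365, 171051174 to 171064935 and 170958617 to 170976547. Fcgr1 lies on chromosome 3, from 96282909 to 96293969.

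Among the inhibitory receptors, Lilrb4a (gp49B) was the most abundant. It had 31.4, 25.9 and 25.5 CPM in PFF, against 8.44, 6.40 and 7.50 CPM in PBS, so the groups were far apart. Its log2 fold change was 1.89 ± 0.14 (adjusted p = 2.99e-06). Pirb, a receptor for MHC class I and for the myelin proteins that inhibit axon growth, had 39.76, 35.30 and 26.54 estimated counts in PFF and 12.47, 7 and 5 in PBS. The log2 fold change of Pirb was 2.03 ± 0.33 (adjusted p = 0.00206). Cd33 had 31, 21 and 29 counts in PFF and 11, 6 and 6 counts in PBS, a log2 fold change of 1.76 ± 0.34 (adjusted p = 0.00637). Pirb and Cd33 thus rest on few reads, above all in PBS, where each was under 13 counts in every library. Lilrb4a lies at chr10:51490956-51496611, Pirb at chr7:3711409-3720391 and Cd33 at chr7:43524216-43544428.

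Fcgr2b, the only inhibitory receptor among the classical IgG receptors, had 5.20, 6.16 and 3.46 CPM in PFF and 2.49, 1.94 and 2.60 CPM in PBS. Its log2 fold change was 1.08 ± 0.25 (adjusted p = 0.0199), and PFF 3 came nearest to the PBS libraries. It did not pass without PFF 1, PFF 2, PBS 1 or PBS 2, where adjusted p ran from 0.0614 to 0.123. Cd300lf, an inhibitory receptor for lipids at chr11:115116214-115133992, was barely detected. It had 2, 1.12 and 6.26 estimated counts in PFF and 2, 1 and 0 in PBS, too few for the filter, and without the filter it did not pass (log2 fold change 1.43 ± 1.00, adjusted p = 0.514). At this depth a change of Cd300lf was not detectable.

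**Figure D2:**
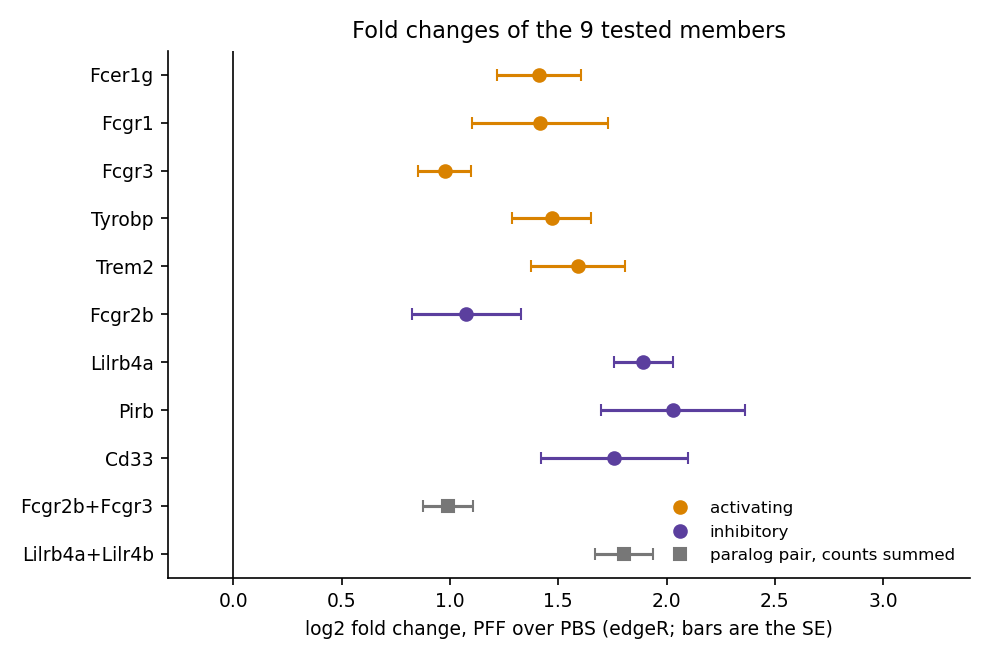
Log2 fold change of PFF over PBS for the 9 tested members (points) and for paralog pairs with their counts summed (squares), with bars of 1 SE from edgeR. Values run from 0.98 for Fcgr3 to 2.03 for Pirb, and the intervals of activating and inhibitory members overlap along the axis.

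Several members share sequence with a paralog, and the counts carry a trace of it. Fcgr2b and Fcgr3 both had fractional counts in 6 of 6 libraries, and in each of these the counts of the pair added up to a whole number (within 0.001): 335, 322 and 295 in PFF, and 170, 142 and 153 in PBS. The same held in 6 of 6 libraries for Lilrb4a and Lilr4b (gp49A), with sums of 451, 400 and 377 in PFF, and 125, 90 and 127 in PBS. Such values arise when reads that match both genes of a pair are divided between them by estimate. Of the 50-base words in Fcgr3 transcripts, 9.58% also occur in Fcgr2b. For Lilrb4a 46.7% occur in other genes, and 35.3% of its exonic bases are also annotated, in the same orientation, as part of Gm49339. For Pirb 34.0% occur in other genes, and in the 4 libraries where Pirb or Pira1 had fractional counts their sum was whole in 0, so no sum tried here removes the division of its reads. As sums, which do not depend on that division, Fcgr2b and Fcgr3 together changed by 0.99 ± 0.12 on the log2 scale (adjusted p = 0.000141) and Lilrb4a and Lilr4b together by 1.80 ± 0.13 (adjusted p = 4.43e-06). Cd300lf summed with Cd300ld had 1.78 ± 0.51 (adjusted p = 0.0558) and did not pass. Fcgr2b and Fcgr3, Lilrb4a and Lilr4b, and Cd300lf and Cd300ld were then each joined. Of the resulting features that hold a member, 8 were called higher, and only the pair of Cd300lf and Cd300ld was not. The share of all genes called in that fit is not given here.

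The mean log2 fold change was 1.37 over the 5 activating members and 1.69 over the 4 tested inhibitory members, a difference of −0.32. No p is given for it, since the members were chosen with results known. Within libraries, the mean log2 CPM of the activating members exceeded that of the inhibitory members by 1.58, 1.67 and 2.15 in PFF and by 2.02, 1.74 and 2.20 in PBS. These values overlapped, and the SD within groups was 0.27. Restricted to the members that met the filter in all 6 libraries, 4 activating and 2 inhibitory, the means were 1.36 and 1.48, and the difference was −0.12. Without Fcgr2b it was −0.52, and without Cd33 it was −0.29. Per length, the inhibitory members took 13.7%, 11.7% and 8.92% of the summed level of all 10 members in PFF 1 to 3, against 7.81%, 9.53% and 9.11% in PBS 1 to 3. PFF 1 and PFF 2 lay above every PBS library and PFF 3 below PBS 2 and PBS 3. On both measures, the libraries of PFF and PBS overlapped.

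Ratios between partners in the same library were tested for 3 pairs with a two-sided exact permutation test, which cannot give a p below 0.1 with 3 libraries per group. The log2 ratio of Fcgr2b to Fcgr3, the inhibitory to the activating low-affinity IgG receptor, was −2.42 ± 0.41 in PFF and −2.48 ± 0.24 in PBS (mean ± SD, n = 3 each; exact p = 0.9, adjusted over the 3 ratios 0.9). The difference of 0.07 changed sign without PFF 2 (−0.12). Reads matching both Fcgr2b and Fcgr3 were divided between them by estimate, so this ratio depends on that division, unlike their sum. The log2 ratio of Trem2 to its adaptor Tyrobp was −1.02 ± 0.08 in PFF and −1.18 ± 0.32 in PBS (exact p = 0.5, adjusted 0.75). The log2 ratio of Fcgr3 to its adaptor Fcer1g was 0.34, 0.29 and 0.03 in PFF 1 to 3, against 0.37, 0.74 and 0.95 in PBS 1 to 3. All PFF libraries were below all PBS libraries for that ratio, with a mean difference of −0.47 (exact p = 0.1, the smallest possible; adjusted 0.3). None of the 3 ratios passed. The Fcgr3 counts in the last ratio carry the same division of reads.

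Set against the summed CPM of the 18 microglia markers in the same library, 8 of the 10 members overlapped between the groups. Tyrobp had 8.73% to 10.5% of that sum in PFF and 7.21% to 8.18% in PBS, and Lilrb4a 3.79% to 5.54% in PFF and 2.60% to 2.96% in PBS. These 2 of the 10 members lay above every PBS library in every PFF library, as 0.711% of all tested genes did. The marker sum was itself higher in PFF (566 to 673 CPM, against 216 to 324 CPM in PBS). Most genes therefore fell relative to it, which makes that share low. It does not show how unusual these 2 members are among myeloid genes. Trem2 (4.16% to 4.99% in PFF, 2.55% to 4.20% in PBS), Pirb (0.396% to 0.679% and 0.186% to 0.401%) and Cd33 (0.363% to 0.527% and 0.223% to 0.367%) overlapped at the edge of the groups. Fcer1g, Fcgr1, Fcgr2b and Cd300lf overlapped more widely. Fcgr3 was the member with a lower mean share in PFF beside Fcgr2b, at 3.82% to 4.77% in PFF and 4.69% to 5.47% in PBS. The marker sum contains Sall1, which was level between groups (21.6 CPM in PFF and 21.5 CPM in PBS). Without Sall1, Tyrobp had 9.09% to 10.8% in PFF and 7.96% to 8.84% in PBS, and Lilrb4a 3.92% to 5.77% and 2.81% to 3.26%. Both were still above every PBS library in every PFF library, as 0.632% of tested genes were, a share with the same limit. Fcgr3 then lay below every PBS library in every PFF library (3.95% to 4.97% in PFF, 5.08% to 6.03% in PBS), as 95.5% of tested genes did, so that position is near the background.

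**Figure D3:**
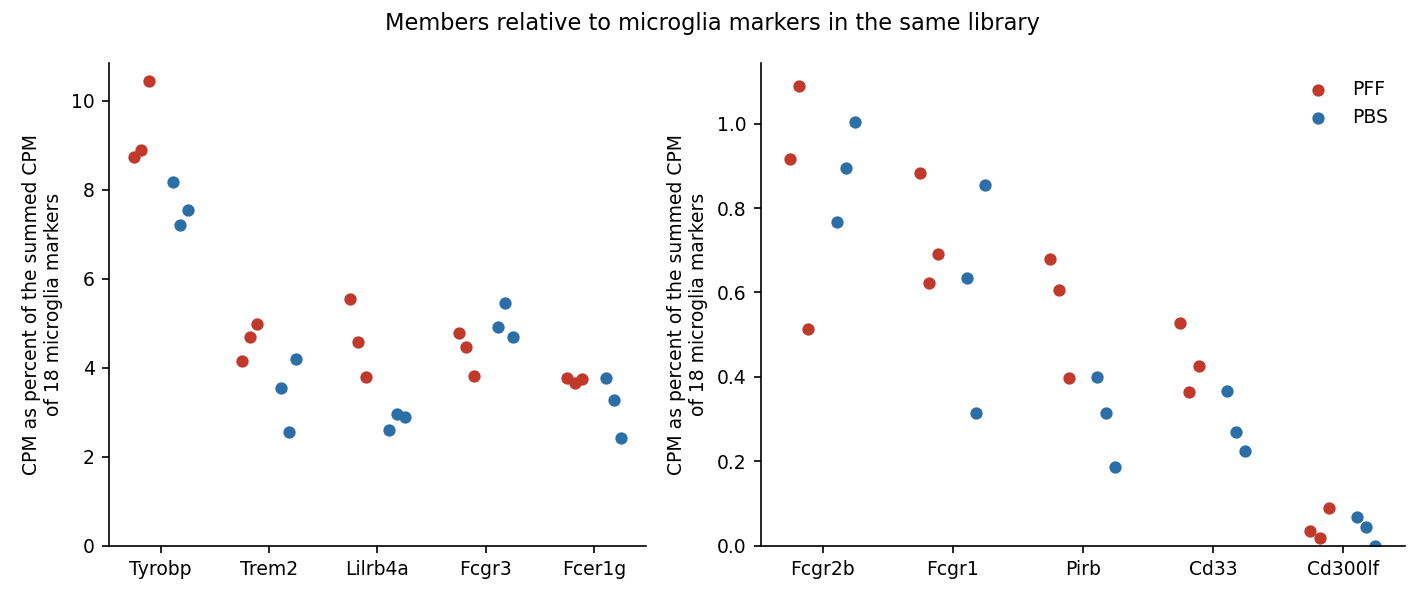
CPM of each member as a percent of the summed CPM of 18 microglia markers in the same library, with 3 PFF points at the left of 3 PBS points for each gene; the panels have different vertical scales, each from 0. Tyrobp and Lilrb4a are the members with no overlap, at 8.73% to 10.5% in PFF against 7.21% to 8.18% in PBS for Tyrobp.

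Levels between genes were compared as CPM per kilobase of the principal transcript. In PFF the order was Tyrobp at 101 ± 20.9, Fcer1g at 33.3 ± 3.57, Trem2 at 25.6 ± 4.72, Lilrb4a at 19.98 ± 2.38 and Fcgr3 at 19.3 ± 0.678 CPM per kilobase (mean ± SD, n = 3). Fcgr1 at 1.70 ± 0.299, Fcgr2b at 1.39 ± 0.387, Pirb at 0.867 ± 0.157, Cd33 at 0.460 ± 0.0884 and Cd300lf at 0.158 ± 0.141 followed. Neighbours from Fcer1g to Fcgr3, and from Fcgr1 to Pirb, overlapped in that order, whereas Tyrobp stood clear of Fcer1g and Fcgr3 of Fcgr1. In PBS the order was Tyrobp (36.4 ± 9.78), Fcer1g (12.6 ± 4.80), Fcgr3 (9.86 ± 1.69), Trem2 (8.53 ± 3.00), Lilrb4a (5.39 ± 0.738), Fcgr2b (0.661 ± 0.0993), Fcgr1 (0.637 ± 0.326), Pirb (0.214 ± 0.111), Cd33 (0.137 ± 0.0615) and Cd300lf (0.0560 ± 0.0581). The same 5 genes thus formed the upper group in both conditions, and there too Tyrobp stood clear of Fcer1g and Lilrb4a of Fcgr2b.

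Genes whose profile over the 6 libraries was most like that of an adaptor were sought among 11518 tested genes averaging 5 CPM or more. The measure was the root mean square difference of log2 CPM after centring each gene, whose median over these genes was 0.79 for Tyrobp and 0.78 for Fcer1g. Nearest to Tyrobp were the protease gene Ctss (0.09), the lysosomal membrane gene Laptm5 (0.11) and the transferrin gene Trf (0.11). Nearest to Fcer1g were the complement gene C1qb (0.11), the integrin activator Fermt3 (0.16) and the oxidase subunit Ncf1 (0.16). Ctss, Laptm5 and C1qb were also among the microglia markers.

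Promoters of the members were taken from RefSeq (GRCm38.p6, 250 bases before to 50 after each start), where 8 of the 10 genes had an entry, and Tyrobp and Lilrb4a had none. They were searched on both strands for GAGGAA, the core of the element bound by the myeloid factor PU.1. It occurred in 6 of the 8 genes (3 of 4 activating and 3 of 4 inhibitory), whereas 31.3% of the 27025 genes in the promoter table held it. Fcer1g and Fcgr2b had no match in this window. The promoters of Pirb and Trem2, an inhibitory and an activating member with the motif, are shown with matches on either strand in capitals.

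Pirb promoter: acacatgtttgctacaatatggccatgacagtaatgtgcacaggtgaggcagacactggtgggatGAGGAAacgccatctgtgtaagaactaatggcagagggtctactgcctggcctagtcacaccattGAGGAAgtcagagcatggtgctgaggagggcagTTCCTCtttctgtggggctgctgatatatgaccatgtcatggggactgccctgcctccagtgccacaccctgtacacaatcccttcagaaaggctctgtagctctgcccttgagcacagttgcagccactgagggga
Trem2 promoter: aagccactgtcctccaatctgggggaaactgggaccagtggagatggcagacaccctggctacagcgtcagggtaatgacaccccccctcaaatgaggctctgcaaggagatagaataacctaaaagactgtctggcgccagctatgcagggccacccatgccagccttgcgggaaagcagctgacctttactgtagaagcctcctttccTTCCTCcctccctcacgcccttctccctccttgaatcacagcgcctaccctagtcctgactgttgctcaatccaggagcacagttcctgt

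The Pirb promoter (chr7:3720333-3720632, minus strand) held 3 matches and the Trem2 promoter (chr17:48346151-48346450, plus strand) held 1. Both genes rose in PFF, by 2.03 and 1.59 on the log2 scale. Fcer1g and Fcgr2b, which had no match, rose too, by 1.41 and 1.08. A match is a string of letters and shows no binding.

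Related receptors were read from fixed lists without the 10 members. For the counts in these and the lists below, 3.98% of all tested genes were called higher. Among 12 other Fc receptor genes, 4 were tested and 1 rose: Fcrls, an Fc receptor-like gene of microglia, at 25.6 ± 5.74 CPM in PFF and 12.4 ± 3.00 CPM in PBS (1.04 ± 0.19 on the log2 scale, adjusted p = 0.00435). Fcgr4, an activating IgG receptor, had 1.12 ± 0.35 and did not pass (adjusted p = 0.0786), though it did with no filter (adjusted p = 0.0364), and Fcgrt and Trim21 did not pass either (adjusted p = 0.238 and 0.892). Of 26 other ITAM-coupled receptors and adaptors 8 were tested and 5 rose, and 6 of the 8 met the filter only through PFF. They included Cd300lb, a Tyrobp-coupled member of the Cd300 family, at 4.78 ± 0.883 CPM in PFF and 0.775 ± 0.198 CPM in PBS (2.62 ± 0.28), and Clec4d, a C-type lectin that signals through Fcer1g (2.62 ± 0.30). The β-glucan receptor Clec7a rose by 0.94 ± 0.11 and Cd200r4 by 1.58 ± 0.35, the last not without PFF 2, PBS 1 or PBS 3 (adjusted p up to 0.0800).

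Genes listed as other inhibitory receptors numbered 20, of which 9 were tested and 8 rose. The lectin Clec12a was at 6.87 ± 1.16 CPM in PFF and 1.09 ± 0.585 CPM in PBS (2.67 ± 0.29, adjusted p = 8.44e-05). Milr1 rose by 1.76 ± 0.31, Lilr4b by 1.60 ± 0.21 and Cd300a by 1.48 ± 0.28. Lilr4b (gp49A) shares reads with Lilrb4a as described, and its tail was not searched for an ITIM, so its class was not checked here. Of the 9, 5 met the filter only through PFF, and with no filter 9 of the 19 with any count rose. The median log2 fold change was 1.44 over the tested genes of this list and 1.45 over those of the other ITAM-coupled list, against −0.00054 for all genes.

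**Figure D4:**
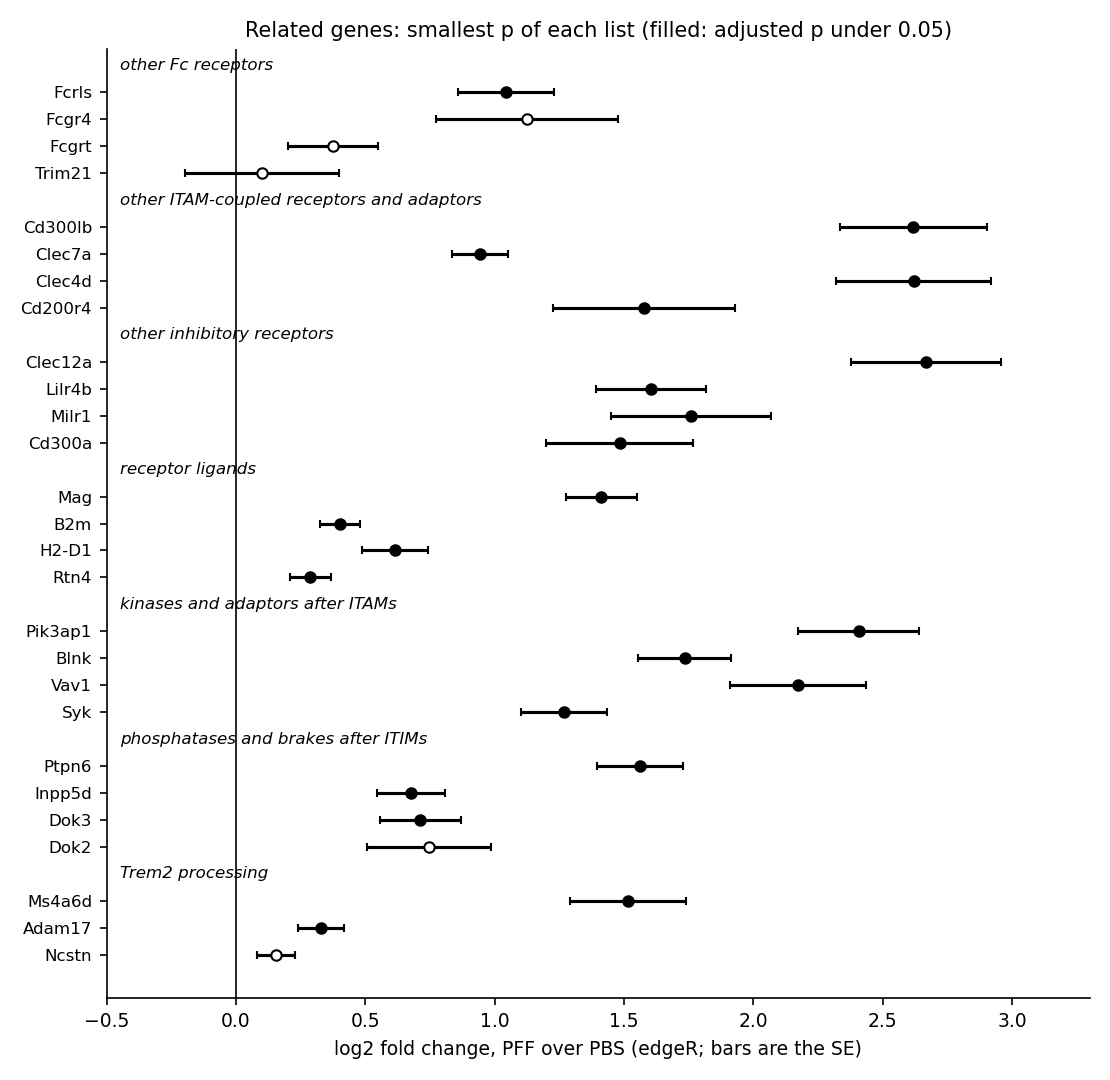
Log2 fold change of PFF over PBS with its SE (edgeR) for the genes with the smallest p in each of 7 related lists (4 genes a list, except 3 for Trem2 processing); filled points have an adjusted p under 0.05. Receptors and kinases reach 2.67 (Clec12a), and the genes of Trem2 processing other than Ms4a6d lie at or below 0.33.

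Downstream of the motifs, 11 of 19 tested kinases and adaptors rose and none fell, with a median log2 fold change of 0.92. Syk, the kinase that binds the ITAM, was at 14.3 ± 1.40 CPM in PFF and 5.97 ± 1.39 CPM in PBS (1.27 ± 0.17), and Vav1, Blnk and Pik3ap1 rose by 2.17 ± 0.26, 1.73 ± 0.18 and 2.41 ± 0.23. On the side of the ITIM, 3 of 10 phosphatases and brakes rose and none fell, with a median of 0.19. These were Ptpn6 (SHP-1), at 10.2 ± 1.18 CPM in PFF and 3.45 ± 0.239 CPM in PBS (1.56 ± 0.17, adjusted p = 8.00e-05), Inpp5d (SHIP1, 0.68 ± 0.13) and Dok3 (0.71 ± 0.16). Inpp5d did not pass without PFF 2 (adjusted p = 0.0519), nor Dok3 without PBS 3 (adjusted p = 0.0556). Dok2 had 0.75 ± 0.24 and did not pass (adjusted p = 0.0857). Over all tested genes 3.98% were called higher. The ITIM list held genes at a like level in both groups, such as Ptpn11 (173 CPM in PFF and in PBS, log2 fold change 0.00022). Pag1 was another (38.8 CPM in PFF and 39.2 CPM in PBS, −0.017). The ITAM list held Fyn (217 and 251 CPM, −0.21), which was not called. The medians depend on the genes listed and do not compare activating with inhibitory signalling.

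Of 11 ligand genes 4 rose, with a median of 0.27. Mag, a myelin ligand of Pirb, rose by 1.41 ± 0.14 (22.4 ± 2.78 CPM in PFF and 8.42 ± 1.00 CPM in PBS). Rtn4, which encodes Nogo, another of the myelin ligands of Pirb, rose by 0.29 ± 0.08 (adjusted p = 0.0454). The MHC class I genes B2m and H2-D1 rose by 0.40 ± 0.08 and 0.62 ± 0.13. Markers of the oligodendrocyte lineage, the source of Mag, moved both ways, with 4 of 8 higher and 4 lower, and their part was not tested. Rtn4 passed with PFF 3 left out and with no other library left out (adjusted p up to 0.226). Among 8 genes of Trem2 processing 2 rose. Ms4a6d, of the gene cluster that modulates soluble Trem2 in human, rose by 1.52 ± 0.23 (6.24 ± 0.559 CPM in PFF and 2.20 ± 0.693 CPM in PBS). Adam17, a sheddase of Trem2, rose by 0.33 ± 0.09 (adjusted p = 0.0446), but not with any library left out (adjusted p up to 0.128), in DESeq2 (adjusted p = 0.124), with upper-quartile scaling (adjusted p = 0.0527), with no low-count filter (adjusted p = 0.0539) or with replicates 1 and 2 only (adjusted p = 0.0615). With no low-count filter 1 gene of this list rose. Ncstn, a γ-secretase subunit gene, had 0.16 ± 0.07 and did not pass (adjusted p = 0.247).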

How the data were processed

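Column-purified RNA of 3 PFF and 3 PBS samples went into libraries that mark the strand, per the labels' protocols. The deposited table holds estimated counts for each gene without scaling (8.69% of values were not whole). Tools named are Trim Galore 0.6.6, STAR 2.7.9a and DESeq2 1.38.3, with the mm10 genome, per the submitters' processing notes. The sources used here name no counting tool, strand setting or gene annotation.

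Columns were matched to samples by name. Counts were rounded and analysed in R 4.3.3 with edgeR 4.0.16: filterByExpr removed 10492 of 24411 genes (a limit of about 0.981 CPM in 3 libraries), TMM scaling followed, then the robust quasi-likelihood F-test, two-sided, group as the only term, with Benjamini-Hochberg adjustment over all genes tested at 0.05. The SE is the log2 fold change divided by the square root of F. Log2 CPM used a prior count of 2, and ratios a count of 0.5 added to each gene. The step was tested on simulated data. Replicates of a group differed by more than counting noise (chi-square per degree of freedom from 2.42 to 7.81).

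Members, lists, motifs and tests were chosen with earlier results of these data known. Named are all 10 members, the 4 genes with the smallest p of each of 7 related lists, and the 3 genes most like each adaptor, except 1 related gene that is not reported here. Alternatives used limma-voom (limma 3.58.1), DESeq2 1.42.0, other scalings and filters, a replicate block and left-out libraries. Summing paralogs, a filter on the overall mean, the mean of members that met the filter in all libraries or of all 10, and the marker sum without Sall1 were added after the data were seen.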

Additional observations from a re-analysis of the deposited data

How the results depend on the processing

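The 9 members stayed called with 3 other scalings, in DESeq2 and limma-voom, in edgeR without robust estimation, without a filter and with a batch term for replicate 3. Requiring at least 50 counts in 3 libraries left 5 members called, of which 1 was inhibitory, since fewer were tested. At an adjusted p under 0.01, 7 passed, and Fcgr1 (adjusted p = 0.0159) and Fcgr2b (adjusted p = 0.0199) did not. The shares of all genes called with that filter and at that threshold are not given here. Both counts therefore describe the members alone. With 1 library left out in turn, 7 to 9 members passed (4 to 5 activating and 3 to 4 inhibitory), while calls over all genes ranged from 412 to 1856 around 916. The difference between the mean log2 fold changes of activating and inhibitory members was below 0 in all alternatives run, from −0.53 to −0.12 (−0.49 to −0.20 with libraries left out). With libraries left out the difference in log2 ratio ranged from −0.12 to 0.29 for Fcgr2b to Fcgr3, where it was −0.0017 without PBS 1, from 0.01 to 0.33 for Trem2 to Tyrobp, and from −0.63 to −0.34 for Fcgr3 to Fcer1g. Trim21, not called, ranged from −0.15 to 0.37 on the log2 scale with libraries left out (−0.11 without PFF 1 and −0.15 without PBS 2), and the cause was not tested.

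Replicate numbers were not taken to pair the samples: deviations of same-numbered libraries correlated at 0.0919, 0.109 and 0.202, and 4 of 6 libraries correlated best with their own number. With a replicate block 9 members and 1997 genes were called, against 916 without it, and Fcgr4 and Dok2 then passed (adjusted p = 0.0295 and 0.0484). With replicates 1 and 2 only 2394 genes were called, and with replicate 3 as a batch term 2005. At these depths Pirb, Cd33, Fcgr1 and Cd300lf rest on few counts in PBS.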
